A study of Rattus norvegicus with 9 samples.

Results

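Ptk2b, Cdh2 and Pdcd10 are 3 genes of cell adhesion and cell junctions that were measured in whole rat lung. They were chosen for this role, by name, among the Agilent catalogue probes that a rat RefSeq gene table tied to a gene. The probes are A_44_P482346 for Ptk2b, A_44_P349475 for Cdh2 and A_43_P19174 for Pdcd10, each the single catalogue probe of its gene and each spotted 10 times on every array. They are 3 of the 29 protein-coding genes that catalogue probes named, on a custom 1-colour array with 38804 probes other than control probes. Only 50 of these were catalogue probes, so a share of all probes below describes mostly other features. Those include probes for long noncoding RNAs and ultraconserved elements. The samples are lungs of male Wistar rats, with 3 arrays per group that are called biological replicates. Whether the 3 control arrays come from 3 rats could not be settled, and an alternative below counts them as 1 sample. In this model of chronic obstructive pulmonary disease, rats were exposed for 90 days to cigarette smoke (CS) or fine particulate matter (PM2.5), and the control rats inhaled NS, which the labels leave unexplained, for the same time. Exposed lungs were archived after 90, 91 and 92 days (replicates 1, 2 and 3 of both groups) and control lungs after 90 days, and the stated age of 6 to 8 weeks is less than the time of exposure. RNA was extracted from ground whole lung, so fewer cells of a type and less RNA per cell cannot be told apart. Of 32 lung cell type markers, 0 had a named probe by which the tissue could be checked. No genome position is given for the probes, because the array header names an older rat genome build than the gene table.

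Cells are held in place by adhesions to the matrix and by junctions to their neighbours. Ptk2b, also called Pyk2, encodes a calcium-responsive tyrosine kinase related to focal adhesion kinase, which signals downstream of integrins and is abundant in macrophages and other leukocytes. Cdh2 encodes N-cadherin, a calcium-dependent adhesion protein that binds its like on the neighbouring cell and is tied to actin through catenins. It is typical of mesenchymal cells, muscle and some endothelium, and its gain by epithelial cells is a known sign of a shift towards a mesenchymal state. Pdcd10 encodes a small adaptor that works with Krit1 and Ccm2 and with a group of Ste20-type kinases, and its loss causes cerebral cavernous malformations, in which endothelial junctions are defective. Of 89 genes listed for focal adhesions, cadherin and tight junctions, the Pdcd10 complex and the mesenchymal shift, these 3 alone had a named probe, so no partner such as a catenin, an integrin or Krit1 can be set beside them.

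Before any result, the control arrays stood apart. They were brighter, with a 75th percentile of signal of 348 ± 7.63 (SD, n = 3) against 210 ± 13.2 (SD, n = 3) for CS and 205 ± 55.7 (SD, n = 3) for PM2.5. They were also more alike, with a median SD over probes of 0.08 log2 units, where the CS arrays had 0.22 and the PM2.5 arrays 0.27. They occupied a slide of their own with its own scan day, so for any difference from control the group, the slide, the scan day and the brightness cannot be told apart. The exposed arrays lay on 3 further slides, 1 of which carried 2 CS arrays (replicates 2 and 3) together with 2 PM2.5 arrays (replicates 1 and 2).

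All 3 probes gave a clear signal on each of the 9 arrays. Each of their 270 spots was well above background, none was saturated, and 3 spots flagged as outliers by the scanner software (1 for Ptk2b and 2 for Cdh2) were left out. All 3 probes passed the filter on dim probes. Before background subtraction, Ptk2b spots were 9.31 to 30.0 times as bright as their surroundings, by the median over spots of an array, which compares with 4.77 to 14.3 times for Cdh2 and 123 to 286 times for Pdcd10. The Cdh2 probe was therefore the one nearest to background. Spots of a probe on 1 array varied by a coefficient of variation of 2.76% to 8.56% for Ptk2b, 4.29% to 11.3% for Cdh2 and 4.22% to 11.4% for Pdcd10. Averaging the spots left a standard error of 0.01 to 0.05 log2 units for a probe on an array. The SD of its means over all 9 arrays, which includes differences between groups, was 0.36 for Ptk2b, 0.33 for Cdh2 and 0.15 for Pdcd10.

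The Ptk2b probe had a mean processed signal of 384, 386 and 357 on control arrays 1, 2 and 3, of 239, 239 and 175 on CS arrays and of 101, 126 and 180 on PM2.5 arrays. The Cdh2 probe had 161, 157 and 150 on control arrays, 74.1, 73.3 and 54.5 on CS arrays and 61.3, 42.2 and 78.8 on PM2.5 arrays. The Pdcd10 probe had 3882, 3931 and 3682 on control arrays, 2115, 1792 and 1943 on CS arrays and 1947, 1883 and 2532 on PM2.5 arrays. All 3 probes were dimmer on every exposed array than on any control array, as was the 75th percentile of the whole array. PM2.5 3, the brightest exposed array, was also the brightest PM2.5 array for each of the 3 probes. Differences are therefore given on the log2 scale relative to each array's 75th percentile, with quantile normalization beside it where the call or the size depends on the scaling.

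**Figure D1:**
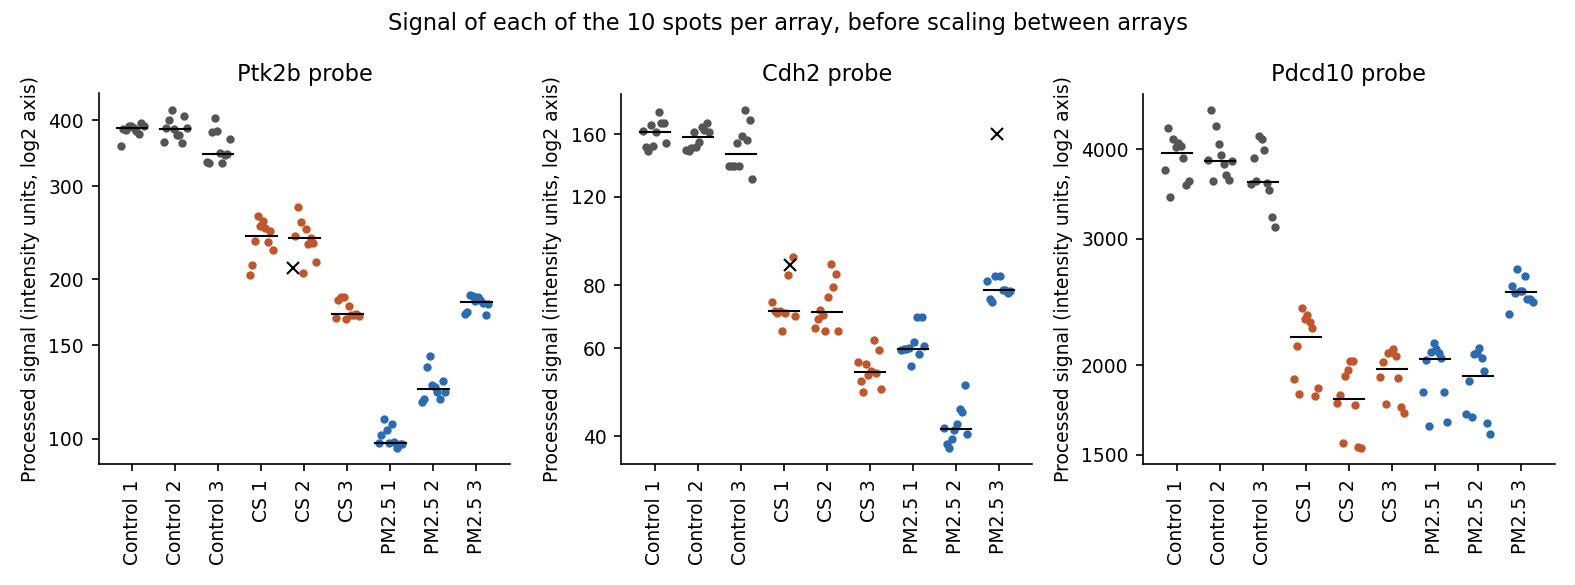
Processed signal (intensity units, log2 axis) of each of the 10 spots of the Ptk2b, Cdh2 and Pdcd10 probes on the 9 arrays, before any scaling between arrays. Coloured points are spots, black lines their median, and crosses the 3 flagged spots that were left out. The spots of each probe lie higher on control arrays than on the exposed arrays, apart from 1 flagged Cdh2 spot on PM2.5 3.

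Ptk2b was lower in lungs of PM2.5 rats than in the other groups, while CS and control lungs overlapped. Relative to the 75th percentile, its log2 level was 0.13, 0.12 and 0.07 on control arrays 1, 2 and 3. It was 0.12, 0.14 and −0.15 on CS arrays, where CS 3 was the low array. On PM2.5 arrays it was −0.73, −0.52 and −0.58, below every array of the other groups. Of all probes, 69% did not overlap between PM2.5 and control, 13.1% with PM2.5 lower. Between CS and PM2.5 19.4% did not overlap, 8.83% with CS higher. The share below both other groups was not counted. The group means were 0.11 ± 0.03 (SD, n = 3) for control, 0.04 ± 0.16 (SD, n = 3) for CS and −0.61 ± 0.11 (SD, n = 3) for PM2.5. The order was therefore control, CS, PM2.5, and the neighbours control and CS did not differ beyond their spread.

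Cdh2, the N-cadherin gene, was lower in both exposed groups than in control lungs. Its log2 level was −1.13, −1.17 and −1.18 on control arrays 1, 2 and 3 and −1.57, −1.57 and −1.84 on CS arrays. On PM2.5 arrays it was −1.44, −2.10 and −1.77, the widest spread of any gene and group here. No exposed array reached the control level, and the CS and PM2.5 arrays overlapped. Among all probes, CS and control arrays did not overlap for 69.7%, 13% with CS lower. For PM2.5 and control the share was 69%, 13.1% with PM2.5 lower. The group means were −1.16 ± 0.03 (SD, n = 3) for control, −1.66 ± 0.16 (SD, n = 3) for CS and −1.77 ± 0.33 (SD, n = 3) for PM2.5. CS and PM2.5, neighbours in that order, did not differ beyond their spread.

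Pdcd10, the gene of the endothelial junction adaptor, varied least over the 9 arrays. Its log2 level was 3.46, 3.47 and 3.43 on control arrays 1, 2 and 3, 3.27, 3.04 and 3.32 on CS arrays and 3.54, 3.38 and 3.23 on PM2.5 arrays. The CS arrays all lay below the control arrays, as for 13% of all probes, while the PM2.5 arrays lay on both sides of them. The group means were 3.46 ± 0.02 (SD, n = 3) for control, 3.21 ± 0.15 (SD, n = 3) for CS and 3.38 ± 0.15 (SD, n = 3) for PM2.5. PM2.5, the middle group in that order, overlapped both of its neighbours. After quantile normalization the PM2.5 arrays, at 11.4, 11.3 and 11.1, all lay below the control arrays, at 11.5 on each, with PM2.5 1 close to them. Among all probes, 48.8% did not overlap between these groups after that normalization, 22.5% with PM2.5 lower.

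**Figure D2:**
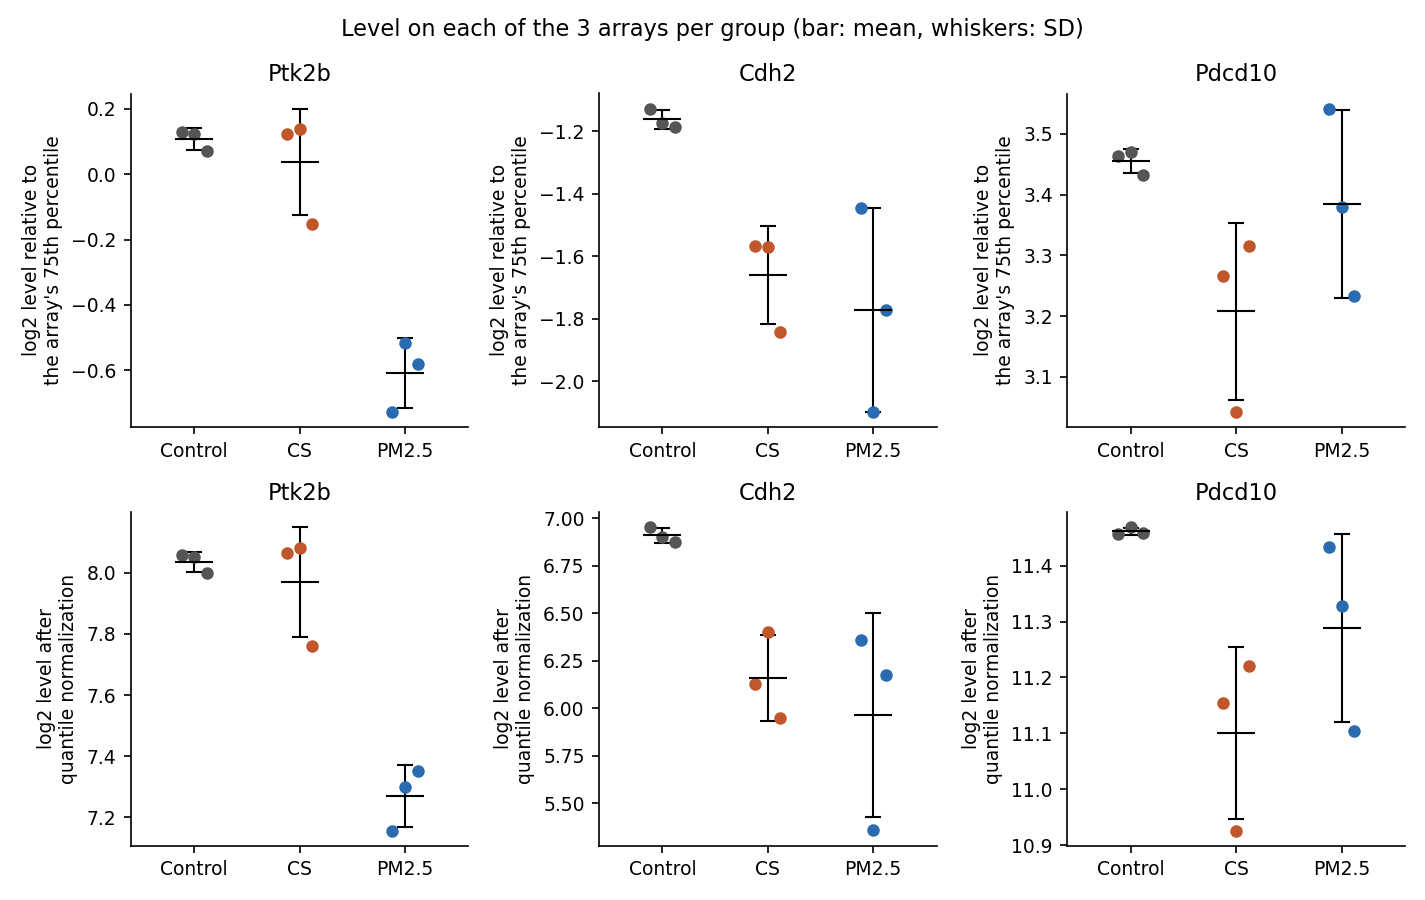
Log2 level of each gene on the 3 arrays of each group, relative to the array's 75th percentile (upper row) and after quantile normalization (lower row). Points are arrays, bars the group mean and whiskers the SD. Ptk2b lies lower on PM2.5 arrays than elsewhere, Cdh2 lies lower on both kinds of exposed arrays, and the Pdcd10 groups lie close together.

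The rank of a probe among the 38804 probes of its own array needs no scaling between arrays. It holds nearly the same information as the quantile normalized level, so it is not separate evidence. By rank, Ptk2b was lowest on the PM2.5 arrays. The share of all probes without overlap was not counted for ranks. After quantile normalization it was 48.8% for PM2.5 against control, 22.5% with PM2.5 lower. The Ptk2b probe stood at the 75.5 to 75.9 percentile on control arrays, 73.6 to 76.1 on CS arrays and 67.7 to 69.8 on PM2.5 arrays. The Cdh2 probe stood at the 64.2 to 65.2 percentile on control arrays, at 48.2 to 57.0 on CS arrays and at 35.2, 52.9 and 56.3 on PM2.5 arrays. Here the low value of PM2.5 2 was apart from the other PM2.5 arrays. The Pdcd10 probe stayed within the 91.8 to 94.0 percentile on all 9 arrays, with 93.9 to 94.0 on control, 91.8 to 93.1 on CS and 92.6 to 93.9 on PM2.5 arrays.

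**Figure D3:**
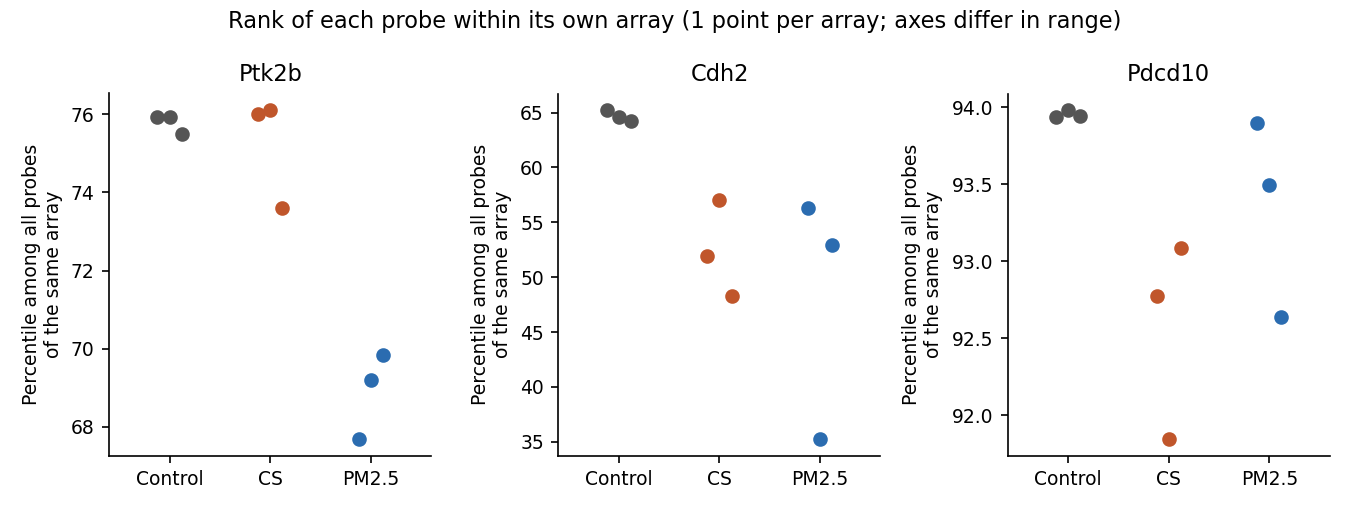
Percentile of the Ptk2b, Cdh2 and Pdcd10 probes among all probes of the same array, with 1 point per array and a separate axis range for each gene. Ptk2b stood at 67.7 to 69.8 on PM2.5 arrays and at 73.6 or higher on the others, and Cdh2 stood at 35.2 to 57.0 on exposed arrays and at 64.2 to 65.2 on control arrays.

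In CS lungs, Cdh2 fell against control, and Ptk2b and Pdcd10 did not pass. The Cdh2 change was −0.50 log2 units (SE 0.17, 95% confidence interval −0.88 to −0.12, limma adjusted p = 0.0383), or 0.708 times the control level. Pdcd10 was lower by a log2 change of −0.25 (95% confidence interval −0.53 to 0.04, adjusted p = 0.123), although its CS and control arrays did not overlap. Ptk2b had a change of −0.07 (95% confidence interval −0.35 to 0.21, adjusted p = 0.631), an interval that reaches a fall of 0.35 log2 units. The count of 1 fall among 3 genes stands against a background in which 47.2% of all 37643 probes tested passed, 8.42% lower and 38.7% higher in CS. Arrays of CS and control did not overlap for 69.7% of all probes, 13% with CS lower, the direction of Cdh2 and Pdcd10.

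The median change of all probes in this comparison was 0.45, so a typical probe was higher in CS on this scale. Relative to that median, Cdh2 lay at −0.94, Pdcd10 at −0.69 and Ptk2b at −0.52, and 7.23%, 12.6% and 18.4% of all probes had a lower change. After quantile normalization the median was 0.06, the background was 24.7% (12.8% lower, 11.8% higher), and the changes were −0.75 for Cdh2 (adjusted p = 0.0409), −0.36 for Pdcd10 (adjusted p = 0.0532) and −0.07 for Ptk2b (adjusted p = 0.706). Pdcd10 passed only after centring each array on its median (−0.63, adjusted p = 0.00584) or with array weights (−0.15, adjusted p = 0.00512), and Ptk2b passed with array weights (−0.27, adjusted p = 0.000135), a setting in which the CS mean rested mainly on CS 3. With array weights 89.4% of all probes passed, 16.1% lower in CS. Centring on the median moved Cdh2 to −0.88 and Ptk2b to −0.46 (adjusted p = 0.0504). With that centring 24.2% of all probes passed, 16.5% lower in CS. Under the 75th percentile, the Cdh2 call was lost without CS 1 (adjusted p = 0.0636), CS 3 (0.121), control 1 (0.109), control 2 (0.0954) or control 3 (0.0837), and with normexp background correction (−0.31, adjusted p = 0.412). It was also lost with slide as a random block (−0.49, adjusted p = 0.231), with the replicate number as a block (adjusted p = 0.0572) and with the 3 control arrays averaged into 1 sample (adjusted p = 0.289).

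In PM2.5 lungs, Ptk2b and Cdh2 fell against control and Pdcd10 did not pass. Ptk2b, the adhesion kinase gene, changed by −0.72 log2 units (SE 0.12, 95% confidence interval −0.99 to −0.44, limma adjusted p = 0.00200), or 0.609 times the control level. Cdh2 changed by −0.61 (SE 0.17, 95% confidence interval −0.99 to −0.23, adjusted p = 0.0153), or 0.655 times. Pdcd10 had a change of −0.07 (95% confidence interval −0.36 to 0.21, adjusted p = 0.637). In this comparison 56.8% of all probes passed, 9.78% lower and 47.1% higher, and 69% did not overlap between the groups, 13.1% with PM2.5 lower. The comparison shares its control arrays with that of CS, so falls of Cdh2 in both are not independent of each other.

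The median change of all probes was 0.51, and relative to it Ptk2b lay at −1.22, Cdh2 at −1.12 and Pdcd10 at −0.58. A lower change than theirs was found in 5.02%, 6.28% and 19.1% of all probes. After quantile normalization, where 29.7% of all probes passed (15.2% lower, 14.5% higher), Ptk2b changed by −0.77 (adjusted p = 0.000928), Cdh2 by −0.95 (adjusted p = 0.0132) and Pdcd10 by −0.17 (adjusted p = 0.308). Leaving out any 1 of the 9 arrays kept the Ptk2b call (adjusted p 0.00249 to 0.0130), and averaging the control arrays into 1 sample ended it (adjusted p = 0.103). Cdh2 was lost without control 1 (adjusted p = 0.0532), with normexp (−0.36, adjusted p = 0.282), with slide as a random block (adjusted p = 0.122) and with the averaged control (adjusted p = 0.189). Centring on the median moved Ptk2b to −1.16 and Cdh2 to −1.05, and Pdcd10 then passed (−0.51, adjusted p = 0.0119). With that centring 33.3% of all probes passed, 20.6% lower in PM2.5. With normexp, which added an offset of 50, 8.13% of all probes passed, and 6.34% for CS against control. Mean Cdh2 signals on exposed arrays were 42.2 to 78.8, and how far the offset made the Cdh2 changes smaller was not tested. Array weights, with most of the PM2.5 weight on PM2.5 1, moved Cdh2 to −0.33 (adjusted p = 0.00619), in a setting where 82.7% of all probes passed.

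**Figure D4:**
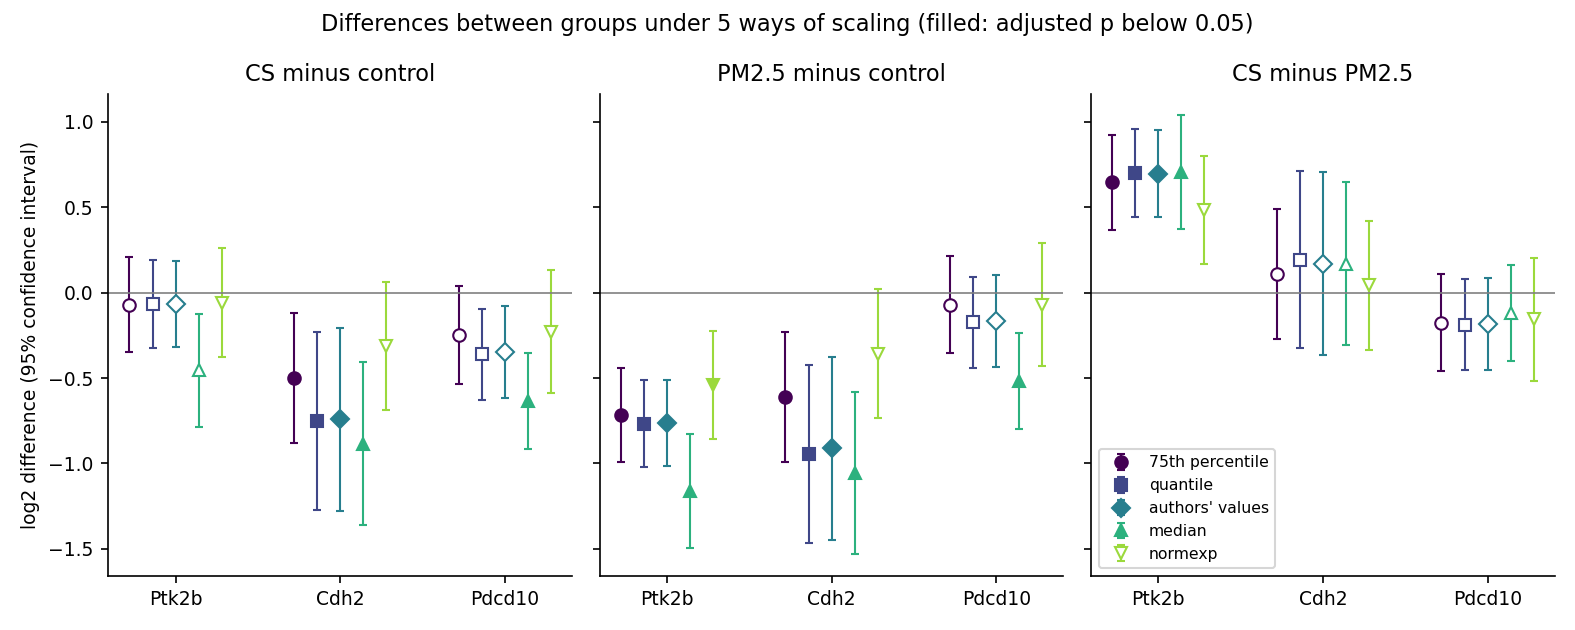
Log2 differences with 95% confidence intervals for Ptk2b, Cdh2 and Pdcd10 in the 3 comparisons, under 5 ways of treating the values: 75th percentile, quantile, the authors' values, centring on the median, and normexp background correction. Filled symbols passed at an adjusted p below 0.05. The Ptk2b fall in PM2.5 passed in all 5 and its difference between CS and PM2.5 in all but normexp, whereas Pdcd10 passed against control only after centring on the median.

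Set directly against each other, the exposed groups differed for Ptk2b and not detectably for Cdh2 or Pdcd10. In CS lungs Ptk2b exceeded its PM2.5 level by 0.65 log2 units (SE 0.12, 95% confidence interval 0.37 to 0.92, limma adjusted p = 0.0154), or 1.56 times, and all 3 CS arrays lay above all 3 PM2.5 arrays. Far fewer probes passed here than against control, 5.88% of all (3.13% higher in CS), and 19.4% did not overlap (8.83% with CS higher). Of all probes tested, 96.8% had a lower CS minus PM2.5 difference than Ptk2b. The difference was 0.11 for Cdh2 (95% confidence interval −0.27 to 0.49, adjusted p = 0.865) and −0.18 for Pdcd10 (95% confidence interval −0.46 to 0.11, adjusted p = 0.570), intervals that reach 0.49 log2 units for Cdh2 and −0.46 for Pdcd10. At each of the 10 spot positions the mean of Ptk2b was higher in CS than in PM2.5, by 0.53 to 0.68 log2 units. Cdh2, which did not pass, was also higher in CS at all 10 positions, by 0.015 to 0.24. Spots are repeats of the same samples, so such counts add no evidence over arrays.

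This comparison does not involve the control arrays except through the shared estimate of the spread, and part of it can be made on 1 slide. On the shared slide, with 2 arrays per exposure, Ptk2b was higher in CS by 0.62 log2 units, against 0.65 over all arrays, although the test on these 4 arrays did not pass (adjusted p = 0.211). Slide as a fixed block drew the difference from the same 4 arrays, so it was again 0.62. Its limma adjusted p was 0.0533, with a spread that included the control arrays. With slide as a random block Ptk2b had an adjusted p of 0.0153. After quantile normalization, where 8.73% of all probes passed (5.18% higher in CS), the Ptk2b difference was 0.70 (adjusted p = 0.00477). Under the 75th percentile the call was lost without CS 1 (adjusted p = 0.0537) or CS 2 (0.0502), with the replicate number as a block (0.0553), with normexp (0.48, adjusted p = 0.201), and with CS and PM2.5 arrays alone in the fit (adjusted p = 0.123), where the SE was 0.16 in place of 0.12. Replicate numbers of exposed rats follow the archive day, so the replicate block also stands for that day. The Cdh2 difference turned to −0.05 without PM2.5 2 (adjusted p = 0.904). With array weights it turned and passed (−0.35, adjusted p = 0.00341), and Pdcd10 passed too (−0.21, adjusted p = 0.0120). In that setting 44.1% of all probes passed, and the group means rested mainly on CS 3 and PM2.5 1.

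Differences between probes on the same array do not depend on a factor that scales a whole array. A shift that differs between dim and bright probes would still enter them. Pdcd10 was far brighter than Ptk2b and Cdh2, and such a shift was not tested. Taken relative to the control mean, Ptk2b minus Pdcd10 was −0.92, −0.55 and −0.47 on the PM2.5 arrays, against −0.01 to 0.01 on control arrays and 0.20, 0.44 and −0.12 on CS arrays. Cdh2 minus Pdcd10 was −0.37, −0.86 and −0.39 on PM2.5 arrays and −0.22, 0.00 and −0.54 on CS arrays, so that CS 2 reached the control range of −0.02 to 0.03. Ptk2b minus Cdh2 was 0.42, 0.44 and 0.42 on CS arrays, above every control array, and −0.55, 0.31 and −0.08 on PM2.5 arrays. The SD of Ptk2b minus Cdh2 was 0.01 log2 units on CS, 0.02 on control and 0.43 on PM2.5 arrays, and these spreads of 3 arrays were not tested against each other. In an exact permutation test of 3 arrays against 3 (two-sided), the smallest p that can be reached is 0.1, and 5 of 9 group comparisons reached it: Ptk2b minus Pdcd10 and Cdh2 minus Pdcd10 for PM2.5 against control (−0.65 and −0.54), Ptk2b minus Cdh2 for CS against control (0.43), and Ptk2b minus Pdcd10 and Ptk2b minus Cdh2 for CS against PM2.5 (0.82 and 0.53). After Benjamini-Hochberg adjustment over the 9 the p was 0.18 for each, and with a lowest p of 0.1 none could pass. These 5 were the comparisons in which the arrays of the groups did not overlap. The share of other probe pairs without overlap was not counted. Among single probes relative to the 75th percentile it was 69.7% for CS against control, 69% for PM2.5 against control and 19.4% for CS against PM2.5.

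**Figure D5:**
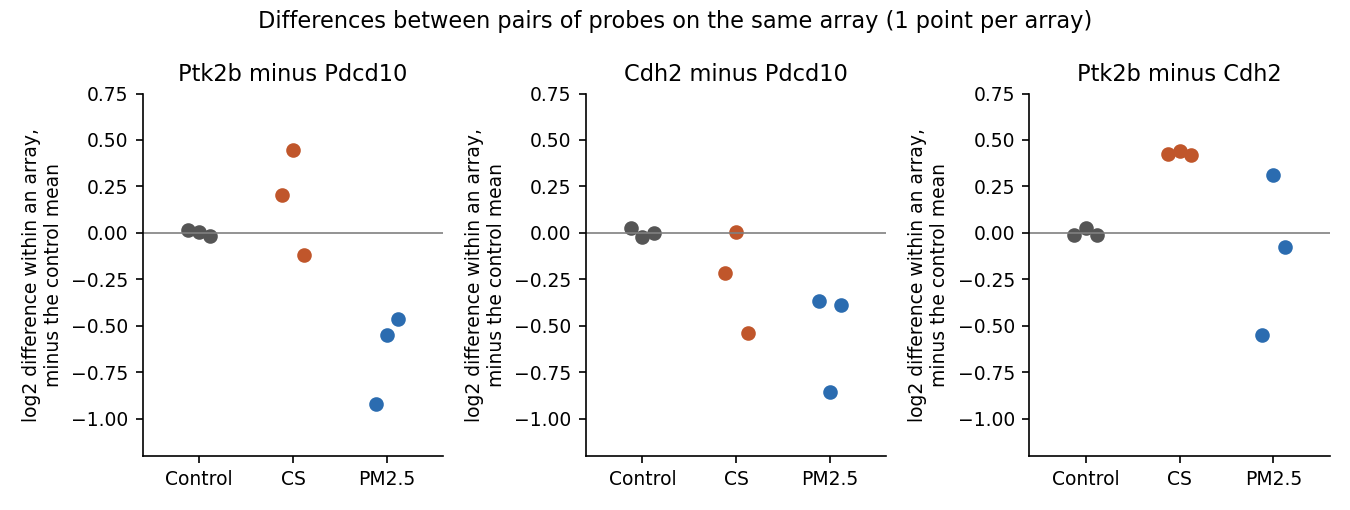
Log2 difference between pairs of probes on the same array, minus the mean of the control arrays, with 1 point per array. Ptk2b minus Pdcd10 lies at −0.92 to −0.47 on PM2.5 arrays, and Ptk2b minus Cdh2 lies at 0.42 to 0.44 on CS arrays and spreads from −0.55 to 0.31 on PM2.5 arrays.

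Each gene was then set beside the other 28 named genes, by the Pearson correlation of their levels over the 9 arrays, which share slides, scaling and the gap between control and exposed arrays. These values are a description. Ptk2b was most like Ppp2r2b, a regulatory subunit gene of protein phosphatase 2A (r = 0.91, and 0.91 over the 6 exposed arrays), Nlrp3, the inflammasome sensor gene (0.88 and 0.91), and Med16, a Mediator subunit gene (0.74 and 0.62). Cdh2 was most like Cyp2e1, a cytochrome P450 gene (0.98 and 0.95), Ldha, a lactate dehydrogenase gene (0.96 and 0.87), and Ndfip2, an adaptor gene of Nedd4-family ubiquitin ligases (0.93 and 0.78). Pdcd10 was most like Eif4b, a translation initiation factor gene (0.84 and 0.80), Mex3c, an RNA-binding ubiquitin ligase gene (0.79 and 0.77), and Ndfip1, another Nedd4-family adaptor gene (0.69 and 0.61). Over the 6 exposed arrays alone other genes came first for Ptk2b (Pop7, a ribonuclease P subunit gene, 0.96) and, by little, for Pdcd10 (Napepld, a gene of lipid metabolism, 0.804 against 0.802 for Eif4b), and both were named after their values were seen. After quantile normalization Nlrp3 came before Ppp2r2b for Ptk2b (0.94 and 0.88), while Cyp2e1 and Eif4b stayed nearest to Cdh2 and Pdcd10 (0.96 and 0.90).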

How the data were processed

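Lung RNA was hybridised to 9 arrays and scanned, and the reading software was Feature Extraction 11.0.1.1. Intensity values as deposited were, per the file headers, corrected for background and spatial trend within an array and not scaled between arrays. Spot flags (0 or 1, entered as other values) came with the deposited files. A table deposited by the authors gives log2 values, which matched the scanner values across probes (r = 0.999 to 1.00) and had nearly equal distributions on all arrays. It was an alternative here, and its making is not given in the sources used here.

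Flagged spots were dropped, log2 signals were averaged per probe, and each array's 75th percentile was subtracted. From 38804 probes, 939 that no group had well above background on all 3 arrays and 222 lacking an unflagged spot on an array were removed, leaving 37643. limma 3.58.1 (R 4.3.3) was fitted to the 9 arrays with a mean per group, and a probe passed at a Benjamini-Hochberg adjusted p over all tested probes below 0.05. The code was tested on simulated data in which all groups had the same spread, unlike the arrays here. The number of arrays limits the precision. Genes named are the 3 members and, for each, the 3 catalogue genes with the highest correlation. Members, lists, tests and alternatives were chosen with earlier results of these data known. The alternatives were other scalings, filters, variance models, blocks and omitted arrays.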

Additional observations from a re-analysis of the deposited data

Results flagged for a closer look

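The level of Ptk2b differed between CS and PM2.5 lungs in a direct test. The CS minus PM2.5 difference, which equals the difference of the changes against the shared control arrays, was 0.65 log2 units (limma adjusted p = 0.0154), and Ptk2b was higher on each of the 3 CS arrays than on any PM2.5 array. Of all probes, 5.88% passed in this comparison and 19.4% did not overlap. The call was kept in 11 of 17 alternatives, not counting those that left out 1 array, and in 7 of the 9 that did. Each fit without the control arrays lost it. The limma adjusted p was 0.123 with CS and PM2.5 arrays alone. Within the shared slide it was 0.211, or 0.171 after quantile normalization. The main test shares its estimate of the spread with the control arrays, where the SD of Ptk2b was 0.03, against 0.16 in CS and 0.11 in PM2.5. The groups hold 3 arrays each, too few for a check of single arrays that stand far from the rest of their group.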

How the results depend on the processing

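Alternatives change 1 choice each, except normexp (offset 50) and 3 that join quantile normalization to another. Each adjusted p is limma's, over all probes tested. Where the report gives it, only the value follows. Normexp ended the calls of Cdh2 in CS (−0.31) and PM2.5 (−0.36) against control and of Ptk2b in CS against PM2.5 (0.48). Centring on the median added Pdcd10 in CS (−0.63) and PM2.5 (−0.51). Slide as a random block ended Cdh2 in CS (−0.49) and PM2.5 (−0.59). The control arrays averaged into 1 sample ended Cdh2 in CS (−0.50) and PM2.5 (−0.61) and Ptk2b in PM2.5 (−0.72). Ptk2b in CS against PM2.5 was lost with these groups alone (0.65) and within the shared slide or with slide as a fixed block (0.62). The replicate block ended Cdh2 in CS (−0.50) and Ptk2b in CS against PM2.5 (0.65), changed no other of the 9 calls, and passed 12448, 17605 and 1204 of all probes in the CS, PM2.5 and direct comparisons. Correlations of −0.45 to 0.18 in deviations of same-number arrays, 3 arrays per group, cannot exclude pairing. Array weights gave Ptk2b −0.27 and Pdcd10 −0.15 in CS, Cdh2 −0.33 and Pdcd10 0.060 (adjusted p = 0.416) in PM2.5, and Cdh2 −0.35 (adjusted p = 0.00341) and Pdcd10 −0.21 (adjusted p = 0.0120) in CS against PM2.5. These weights did not converge, and CS 3 had 123 against 0.17 and 0.18 for the other CS arrays, and PM2.5 1 had 2.68 against 0.14 and 0.13 for the other PM2.5 arrays, so that each mean rested mainly on 1 array. Added after seeing the data, quantile normalization with the averaged control gave Cdh2 −0.75 (adjusted p = 0.371) in CS and −0.95 (adjusted p = 0.208) in PM2.5, and Ptk2b −0.77 (adjusted p = 0.0706) in PM2.5. With the random slide block it gave Cdh2 −0.70 (adjusted p = 0.294) in CS and −0.94 (adjusted p = 0.127) in PM2.5, and within the shared slide Ptk2b 0.69 (adjusted p = 0.171) in CS against PM2.5. Keeping flagged spots, also added then, changed none of the 9 calls. The cause of these changes was not tested.

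Leaving out 1 array gave, for CS against control, Ptk2b −0.12 to 0.024 (above 0 without CS 3), Cdh2 −0.54 to −0.41 and Pdcd10 −0.30 to −0.16. For PM2.5 against control it gave Ptk2b −0.76 to −0.66, Cdh2 −0.77 to −0.45 and Pdcd10 −0.15 to 0.0052 (above 0 without PM2.5 3). For CS against PM2.5 it gave Ptk2b 0.59 to 0.74, Cdh2 −0.052 to 0.27 (below 0 without PM2.5 2) and Pdcd10 −0.25 to −0.09. Of the 16 other alternatives, Ptk2b in PM2.5 passed in 14, Cdh2 in PM2.5 in 11 and Cdh2 in CS in 10, and Ptk2b in CS against PM2.5 passed in 11 of 17. The number of all probes that passed was 17756 for CS against control (166 with the averaged control to 33671 with array weights), 21392 for PM2.5 against control (1423 to 31126, same settings) and 2214 for CS against PM2.5 (298 within the shared slide after quantile normalization to 16612 with array weights). Quantile normalization gave 9289, 11177 and 3288. Leaving out 1 array gave 8007 to 21898, 13269 to 24947 and 1332 to 2575. Signal over background was lowest for Cdh2 (4.77 to 14.3 times).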

Other observations

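The 10 spots of a probe showed a pattern that recurred between arrays. After removal of each array's mean, the mean deviation of the 10 spot positions had an SD of 0.06 log2 units for Ptk2b, 0.10 for Cdh2 and 0.12 for Pdcd10, against a residual SD of 0.06, 0.07 and 0.07. As spot positions are the same on every array, this part cancels in differences between arrays, apart from the 3 spots left out. The spot left out for Cdh2 on PM2.5 3 had a signal of 160, where the other 9 spots of that array lay between 74.2 and 83.6, and the control arrays at 130 to 178.

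The CS minus control difference of Ptk2b was below 0 at 9 of the 10 spot positions and above 0 at 1, while the PM2.5 minus control difference was below 0 at all 10 (−0.77 to −0.65). For Pdcd10 the CS minus PM2.5 difference was below 0 at all 10 positions (−0.27 to −0.12), although it did not pass over arrays. Spots of 1 array are repeats of the same sample and do not add to the number of rats.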
